A study of Mus musculus with 5 samples.

Results

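Polycomb repressive complex 1 (PRC1) is assembled from interchangeable subunits, and 9 genes that encode them, Bmi1, Pcgf3, Pcgf5, Pcgf6, Cbx2, Cbx7, Cbx8, Phc1 and Phc2, were followed here in mouse myeloid progenitors. They were taken by symbol from a list of PRC1 subunits, a rule that uses no measured value. The list was chosen with earlier results of these data known. All 9 were found among the 52550 genes of the count table. Gene expression was measured by QuantSeq, a 3′ RNA sequencing method, in KL cells (Lin-cKit+Sca1-), a bone marrow gate that holds the committed myeloid progenitors. The 3 BcorΔE9-10 libraries came from male mice of genotype scl-Cre-ERT +; Bcorfl/y and the 2 BcorWT libraries from male mice of genotype scl-Cre-ERT +; Bcorwt/y. All mice carried the same tamoxifen-inducible Cre, driven by regulatory sequence of the stem cell leukaemia gene so that recombination starts in haematopoietic stem cells, and all received 1 mg of tamoxifen into the peritoneum on each of 5 days at 3 to 6 months of age. Marrow was taken 20 weeks later. After Cre acts, exons 9 and 10 are lost and the protein ends before its PRC1-binding part. The comparison therefore asked whether genes for other PRC1 subunits were read at another level in cells whose Bcor cannot join the complex. The sources do not say that each library came from a separate mouse, so p-values measure the spread between these samples.

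PRC1 places a ubiquitin on histone H2A (H2AK119ub) through Ring1 or Rnf2, and each complex holds 1 of 6 PCGF proteins that sets which other subunits can join. Canonical complexes are built on Bmi1 or Pcgf2 with a CBX protein, whose chromodomain reads the H3K27me3 mark of PRC2, and a PHC protein, which compacts chromatin by polymerising. Variant complexes hold Rybp or Yaf2 in place of CBX and PHC, and Bcor belongs to the one built on Pcgf1, PRC1.1. The study cites reports that the PRC1-binding part of Bcor can also bind Pcgf3. It also cites a Bcor complex with Cbx8 in germinal centre B cells. In blood, Bmi1 is known for stem cell self-renewal and for repression of Cdkn2a.

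The libraries held 5998924 to 8303999 counts, and 3 counts of a gene corresponded to 0.351 to 0.490 CPM, the counts scaled to a common library size in units of 1e+06. The genotypes stood apart on the first principal component, which carried 54.8% of the variance. Kit, the receptor that defines the gate, stood at 49.4 to 53.4 CPM in BcorΔE9-10 and 18.2 to 19.6 CPM in BcorWT libraries. It was called higher (log2 fold change 1.43, limma adjusted p = 9.8e-05). The 6 genes of KL progenitors, Kit among them, summed to 6719 to 8097 CPM with no separation of the groups. Mpo made up most of that sum (4292 to 5534 CPM), so it does not show the other genes. Of the 6, Kit and Ctsg were higher in BcorΔE9-10 without overlap, and only Kit was called. Genes that the gate should remove were not all absent, since Ly6g, a neutrophil surface gene, was read at 208 to 228 CPM in BcorΔE9-10 and 321 to 570 CPM in BcorWT libraries. Itgam, which encodes the lineage marker CD11b, stood at 119.6 to 132.3 CPM in BcorΔE9-10 and 96.42 and 96.46 CPM in BcorWT libraries, without overlap but not past the threshold (log2 fold change 0.37, limma adjusted p = 0.0618). With a GC trend removed from each library the log2 fold change of Itgam was 0.02 (adjusted p = 0.950). Bcor itself was higher in BcorΔE9-10 cells (log2 fold change 0.78, limma adjusted p = 0.0313; 0.39 and 0.287 with a GC trend removed), but its 3′ end lies outside the deleted exons and checks no label.

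A 3′ count is taken once per transcript end whatever the length of the transcript, so CPM values were compared between genes without division by length. Pcgf5 was the highest of the 9 genes in all 5 libraries, at 27.0 to 59.2 CPM, and Phc2 came next in all 5, at 18.1 to 30.8 CPM. Bmi1 (13.04 to 18.9 CPM), Cbx8 (9.80 to 17.2 CPM), Pcgf3 (9.23 to 9.79 CPM) and Phc1 (4.73 to 9.78 CPM) formed the middle of the order. Cbx7 (1.48 to 3.55 CPM), Pcgf6 (1.04 to 2.60 CPM) and Cbx2 (0.568 to 1.06 CPM) were low. Neighbours in this order were not always apart: in BcorWT the values of Pcgf5 and Phc2 overlapped, as did those of Pcgf3 and Phc1, while in BcorΔE9-10 both pairs were separate. In BcorΔE9-10 the values of Phc2 and Bmi1 overlapped, as did those of Bmi1 and Cbx8, and Cbx8 stood above Bmi1 in replicate 3. Cbx7 and Pcgf6 overlapped in both genotypes, and Pcgf6 and Cbx2 had equal counts in BcorWT replicate 2.

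**Figure D1:**
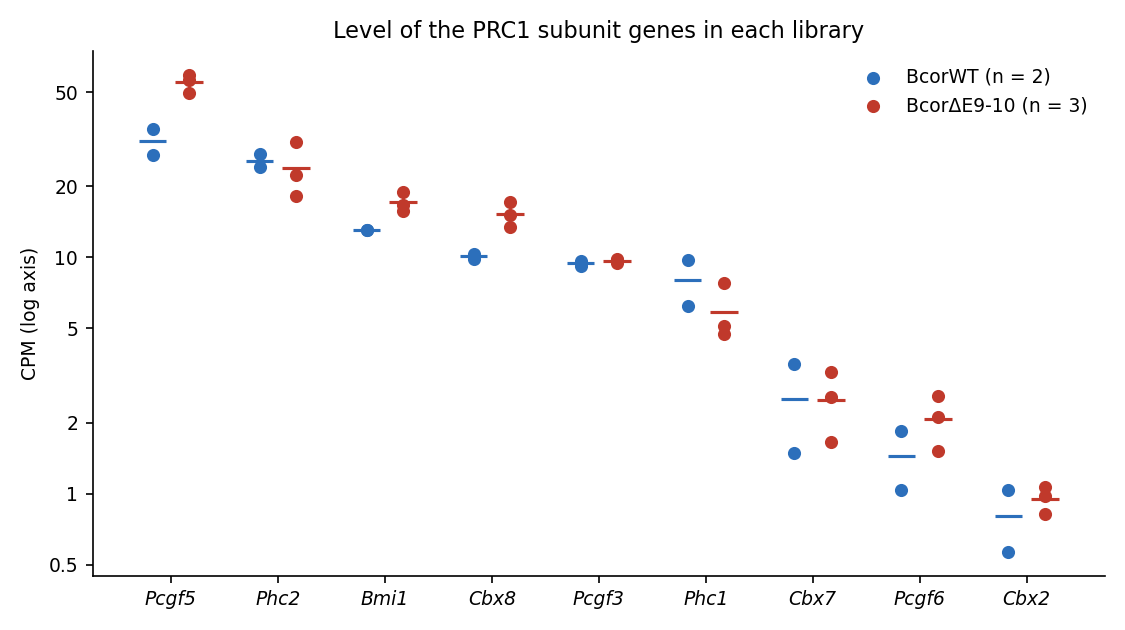
CPM on a log axis for each of the 9 PRC1 subunit genes, with a point for each library (blue BcorWT, n = 2; red BcorΔE9-10, n = 3) and a bar at the group mean. Every red point of Pcgf5, Cbx8 and Bmi1 lies above every blue point, whereas the points of the other 6 genes overlap.

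Pcgf5 was the only one of the 8 tested subunit genes that passed the threshold, and it was higher in BcorΔE9-10 cells. It encodes the PCGF protein of the variant complex PRC1.5 and lies on chromosome 19 (mm10, 36348309 to 36460970, plus strand). Its counts were 421, 363 and 480 with mutant and 190 and 236 with intact Bcor, or 49.8, 59.2 and 56.1 against 27.0 and 35.0 CPM. The lowest BcorΔE9-10 library was therefore well above the higher BcorWT library. The means were 55.0 ± 4.83 CPM (SD, n = 3) and 31.0 ± 5.65 CPM (SD, n = 2), a 1.78-fold difference (95% interval 1.40 to 2.27). On the log2 scale the fold change was 0.83 (SE 0.166), with an adjusted p of 0.00442 in limma over 11766 genes. Without BcorWT replicate 1 the log2 fold change was 0.64 with an adjusted p of 0.0645, the remaining BcorWT library being assumed to vary like the BcorΔE9-10 libraries. After removal of a GC trend from each library it was 0.51 with an adjusted p of 0.0563. An antisense gene, F530104D19Rik, shares 60 exon bases with Pcgf5 on the other strand and had 0 counts in all 5 libraries.

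Pcgf3, the PCGF gene of the closely related complex PRC1.3 (chromosome 5, 108461232 to 108506976, plus strand), was not called. It had 80, 60 and 83 counts in BcorΔE9-10 and 65 and 65 in BcorWT libraries, which is 9.65 ± 0.173 CPM (SD, n = 3) against 9.43 ± 0.283 CPM (SD, n = 2). The 5 values lay within a range of 9.23 to 9.79 CPM and the groups overlapped. Its log2 fold change was 0.03 (SE 0.247, adjusted p = 0.957), with a 95% interval of -0.49 to 0.55. The ratio of Pcgf5 to Pcgf3 counts was 5.26, 6.05 and 5.78 in BcorΔE9-10 libraries and 2.92 and 3.63 in BcorWT libraries. On the log2 scale this ratio was higher by 0.80 without overlap (p = 0.2 in a two-sided exact permutation test, the smallest value that 10 splits of 3 and 2 libraries allow). The end of Pcgf3 is richer in GC than that of Pcgf5 (41.7% against 28.7%), and with a GC trend removed their log2 fold changes differed by 0.47.

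The sequences around the annotated starts of these genes are shown because CG-rich promoters are the DNA to which PRC1.1 is known to bind through Kdm2b. A further reason is that Pcgf5 was called and Pcgf3 was not. In wild-type KL cells, however, the study reported that its promoter clusters rich in H2AK119ub were not significantly enriched for CpG islands. Each window runs from 250 bases before to 50 bases after a RefSeq start (GRCm38.p6, the same build as mm10), reads 5′ to 3′ on the strand of the gene, and has every CG pair in capitals. CG reads the same on both strands, and no other motif was searched. The first of the 3 Pcgf5 starts (chr19:36348079-36348378, plus strand) and the Pcgf3 start (chr5:108461009-108461308, plus strand) read as follows.
Pcgf5: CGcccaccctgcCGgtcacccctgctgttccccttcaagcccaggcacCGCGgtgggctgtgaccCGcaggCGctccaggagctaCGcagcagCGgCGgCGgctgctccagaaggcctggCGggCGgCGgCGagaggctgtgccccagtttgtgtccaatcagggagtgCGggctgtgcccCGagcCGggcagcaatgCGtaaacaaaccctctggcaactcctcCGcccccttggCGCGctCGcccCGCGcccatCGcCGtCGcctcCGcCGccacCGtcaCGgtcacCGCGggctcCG
Pcgf3: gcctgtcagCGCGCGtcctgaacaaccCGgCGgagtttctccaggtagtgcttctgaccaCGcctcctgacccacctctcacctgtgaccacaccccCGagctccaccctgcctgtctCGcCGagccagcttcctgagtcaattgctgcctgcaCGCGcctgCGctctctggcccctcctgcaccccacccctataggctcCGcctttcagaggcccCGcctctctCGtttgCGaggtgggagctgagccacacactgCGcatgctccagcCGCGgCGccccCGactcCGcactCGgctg
The Pcgf5 window held 34 CG pairs, a number that 7.7% of 32851 promoter windows reach, and the Pcgf3 window 23, which 21.5% reach. The other Pcgf5 starts had 5 and 35 pairs. Over the 8 subunit genes with a window the 12 windows held 2 to 45 pairs, against a median of 7 in all windows, so CG-rich starts were found in called and in uncalled genes.

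Bmi1, the PCGF subunit of canonical PRC1 (chromosome 2, 18677018 to 18686629, plus strand), had 160, 96 and 142 counts in BcorΔE9-10 and 92 and 88 in BcorWT libraries. In CPM these were 18.9, 15.7 and 16.6 against 13.07 and 13.04, so the groups did not overlap. The log2 fold change of 0.39 (SE 0.214, 95% interval -0.06 to 0.84) did not pass the threshold (adjusted p = 0.274). The ratio of Pcgf5 to Bmi1 counts ranged from 2.63 to 3.78 in BcorΔE9-10 and from 2.07 to 2.68 in BcorWT libraries. These ranges overlapped (log2 difference 0.46, p = 0.4 in the exact permutation test), so a difference of Pcgf5 relative to Bmi1 was not resolved.

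Pcgf6 (chromosome 19, 47033619 to 47050845, minus strand), which directs PRC1.6 to germ cell genes together with Mga and Max, was read too rarely for a firm comparison. Its counts were 22, 13 and 13 in BcorΔE9-10 and 13 and 7 in BcorWT libraries. The log2 fold change of 0.51 had an SE of 0.60 and an adjusted p of 0.639, and its 95% interval of -0.76 to 1.78 includes the value of Pcgf5. It was 0.90 without BcorWT replicate 1, 0.125 without BcorWT replicate 2 and 0.31 without BcorΔE9-10 replicate 1.

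Of the CBX genes among the 9, Cbx8 (chromosome 11, 119036305 to 119040969, minus strand) had the smallest p. It had 128, 82 and 147 counts in BcorΔE9-10 and 69 and 70 in BcorWT libraries, or 15.1, 13.4 and 17.2 against 9.80 and 10.4 CPM. No BcorΔE9-10 library fell within the BcorWT values. The means of 15.2 ± 1.90 CPM (SD, n = 3) and 10.1 ± 0.406 CPM (SD, n = 2) gave a log2 fold change of 0.60 (SE 0.237, 95% interval 0.10 to 1.1). Its unadjusted p was 0.0219, and over all genes the adjusted p was 0.122, so Cbx8 was not called.

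Cbx7, the CBX protein most tied to stem cell self-renewal (chromosome 15, 79915807 to 79971119, minus strand), had 14, 20 and 22 counts in BcorΔE9-10 and 25 and 10 in BcorWT libraries. The BcorWT libraries were the highest and the lowest of the 5 in CPM (3.55 and 1.48), and the means were 2.50 ± 0.807 (SD, n = 3) and 2.52 ± 1.46 CPM (SD, n = 2). This gave a log2 fold change of 0.0006 (adjusted p = 0.999), with a 95% interval of -1.13 to 1.13. Cbx7 shares 100 exon bases with Apobec3 on the other strand, and 24.0% of the 30-base words in its last 300 bases also occur there, so reads of the 2 genes could be mixed if strand was not used in counting. Apobec3 had 176 to 322 counts per library and was not called (log2 fold change 0.27, adjusted p = 0.356).

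Cbx2 (chromosome 11, 119022962 to 119031270, plus strand), the neighbour of Cbx8, had 9, 6 and 7 counts in BcorΔE9-10 and 4 and 7 in BcorWT libraries. It was the 1 gene of the 9 that did not pass the filter on low counts and has no test here. With no filter its log2 fold change was 0.27 (SE 0.778, adjusted p = 0.858).

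Neither of the PHC genes was called. Phc1 (chromosome 6, 122317731 to 122340561, minus strand) had 66, 29 and 44 counts in BcorΔE9-10 and 44 and 66 in BcorWT libraries, with means of 5.89 ± 1.67 (SD, n = 3) and 8.01 ± 2.50 CPM (SD, n = 2). The groups overlapped and the log2 fold change of -0.41 (SE 0.324, 95% interval -1.09 to 0.28) did not pass (adjusted p = 0.459). It was -0.74 without BcorWT replicate 1 and -0.09 without BcorWT replicate 2. Phc2 (chromosome 4, 128654702 to 128752881, plus strand) had 261, 111 and 191 counts in BcorΔE9-10 and 169 and 184 in BcorWT libraries. At 23.8 ± 6.49 (SD, n = 3) and 25.6 ± 2.31 CPM (SD, n = 2), its BcorWT values fell inside the spread of the BcorΔE9-10 values. Phc2 had a log2 fold change of -0.11 (SE 0.211, adjusted p = 0.784), which was 0.03 with libraries scaled by their totals alone.

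Of the 9 subunit genes, 8 were tested and 1 was called at an adjusted p under 0.05 by limma. Among all genes tested 10.1% were called, and 6.02% were called higher, so 1 call among 8 is near the share of all genes. The groups did not overlap, with BcorΔE9-10 higher, for 3 of the 8 (Pcgf5, Cbx8 and Bmi1), against 22.6% of all genes. Under the looser rule of an unadjusted p below 0.05 and a log2 fold change beyond 0.5 in size, Pcgf5 and Cbx8 passed, 2 of 8, against 16.7% of all genes. The median log2 fold change was 0.21 over the 8 genes and 0.004 over all genes tested. Calls over all genes were split into 708 higher and 481 lower, and into 1210 higher and 197 lower when libraries were scaled by their totals alone. With that scaling the median over all genes tested moved to 0.15, and Pcgf5 stood at 0.98 on the log2 scale.

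**Figure D2:**
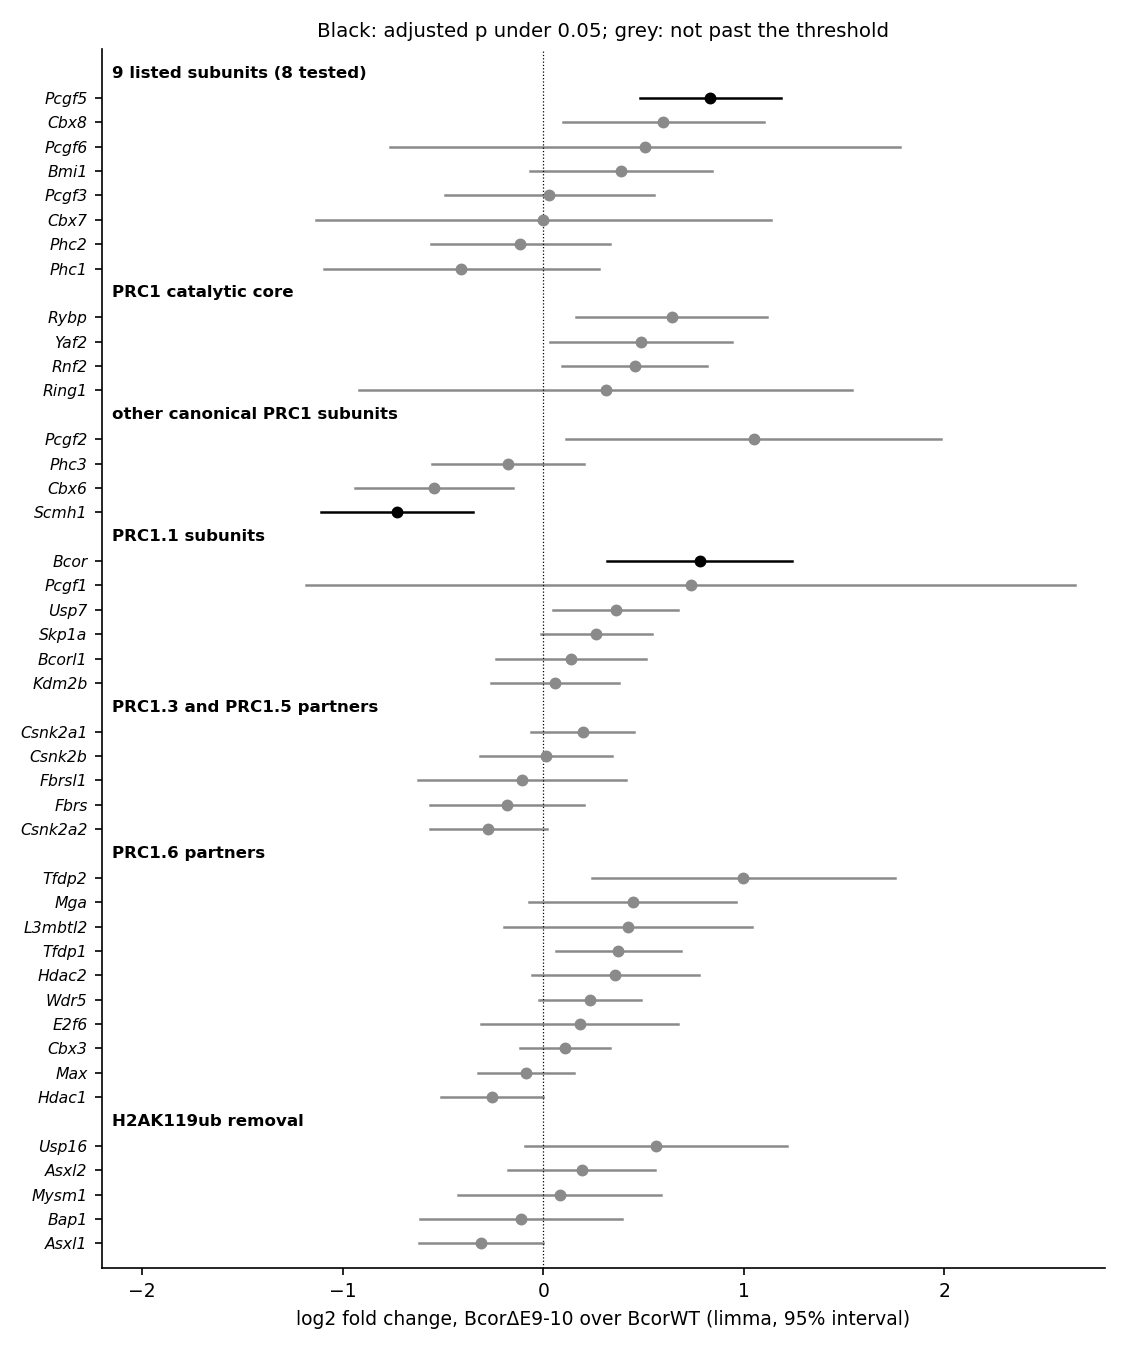
Log2 fold change of BcorΔE9-10 over BcorWT with its 95% limma interval for the 8 tested subunit genes and, below them, 34 other tested genes of PRC1 and of H2AK119ub removal, grouped by complex. Black marks an adjusted p under 0.05, which holds for Pcgf5 and Bcor on the higher side and Scmh1 on the lower side.

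The paralogues were then compared as shares of their summed 3′ counts. Pcgf5 made up 61.0 ± 4.37% of PCGF counts in BcorΔE9-10 (SD, n = 3) and 53.2 ± 5.04% in BcorWT (SD, n = 2). These shares overlapped, since 1 BcorΔE9-10 library stood at 56.0% and 1 BcorWT library at 56.7% (p = 0.4, exact permutation test). Pcgf3 took 10.7 ± 0.17% and 16.3 ± 0.95% of PCGF counts in BcorΔE9-10 and BcorWT without overlap (p = 0.2, exact permutation test), at nearly equal CPM (9.65 and 9.43). Bmi1 took 18.95% and 22.6% in BcorΔE9-10 and BcorWT respectively, and Pcgf1, the partner of Bcor in PRC1.1, 1.28% and 1.15%. Pcgf2 took 5.76 ± 1.5% and 4.25 ± 0.11% without overlap (p = 0.2, exact permutation test).

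Of the summed counts of Cbx2, Cbx6, Cbx7 and Cbx8, Cbx8 made up 38.9 ± 4.84% in BcorΔE9-10 (SD, n = 3) and 23.3 ± 1.97% in BcorWT (SD, n = 2). Cbx6 took 52.3 ± 3.54% and 68.8 ± 5.55%. Neither share overlapped between the groups, but shares of 1 sum move against each other and Cbx6 was chosen after its values were seen, so both are given as a description. Cbx2 and Cbx7 were small members, at 2.44% and 6.33% in BcorΔE9-10 and 1.81% and 6.05% in BcorWT. In the PHC family, Phc2 held 45.1% and 43.4% and Phc1 11.2% and 13.5%, and all 3 PHC shares overlapped.

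**Figure D3:**
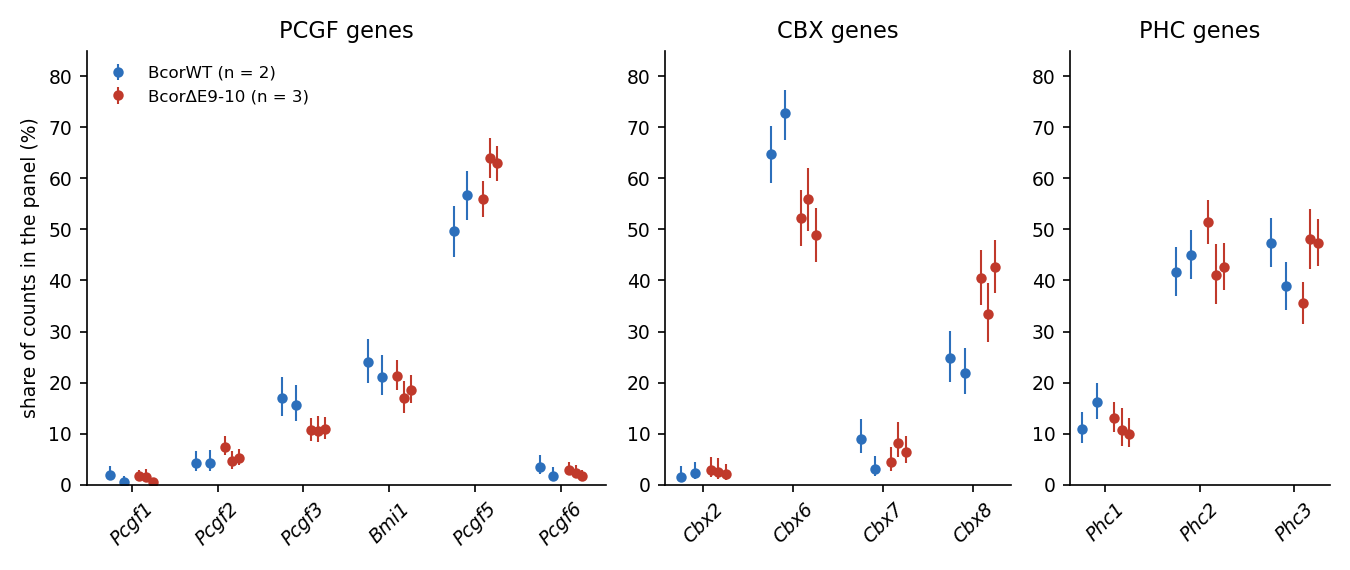
Share of the summed 3′ counts of the PCGF, the 4 plotted CBX and the PHC genes taken by each gene, in percent, with a point for each library (blue BcorWT, red BcorΔE9-10) and its 95% Wilson interval, which covers counting error only. Pcgf5 holds the largest PCGF share in every library, and the shares of Pcgf2, Pcgf3, Cbx6 and Cbx8 do not overlap between the groups.

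The genes with which these subunits work were examined as lists written from general knowledge. Of 4 genes of the catalytic core, 0 were called by limma, edgeR or DESeq2, although 3 had an unadjusted p under 0.05. The share of all genes tested at that unadjusted p alone was not counted. Counts at that rule, here and below, thus have no background beside them. The smallest adjusted p was that of Rybp, which stimulates ubiquitination in variant complexes (log2 fold change 0.64, adjusted p = 0.0845). Rybp rested on the BcorWT libraries, with a log2 fold change of 0.22 (adjusted p = 0.656) without BcorWT replicate 1 and 1.05 (adjusted p = 0.0108) without BcorWT replicate 2, and its groups overlapped. All 4 had a positive log2 fold change, as had 5931 of all 11766 genes tested, and their median was 0.47 against 0.004. The ends of Rnf2, Rybp and Yaf2 are low in GC, at 29.3 to 34.7%, and with a GC trend removed their log2 fold changes were 0.16, 0.48 and 0.34. Of 4 tested genes among the other canonical subunits listed 1 was called and 3 had an unadjusted p under 0.05. Scmh1, a SAM domain protein that joins canonical PRC1 with PHC proteins, had 149, 98 and 162 counts in BcorΔE9-10 and 197 and 206 in BcorWT libraries. It was lower in BcorΔE9-10 cells (log2 fold change -0.73, SE 0.178, adjusted p = 0.0162). The adjusted p of Scmh1 was 0.0541 with a GC trend removed, 0.0532 without BcorΔE9-10 replicate 2 and 0.0605 without BcorWT replicate 2. Cbx6, a chromodomain protein, had a log2 fold change of -0.54 (SE 0.185, adjusted p = 0.0735) without overlap of the groups, but it was -0.76 (adjusted p = 0.0380) without BcorWT replicate 1 and -0.33 (adjusted p = 0.375) without BcorWT replicate 2. Pcgf2, the alternative to Bmi1 in canonical complexes, had a log2 fold change of 1.05 (SE 0.442, adjusted p = 0.146), also without overlap. Both were chosen after their values were seen. In PRC1.1, 1 of 6 tested genes was called, which was Bcor itself. The adjusted p of Bcor was 0.272 without BcorWT replicate 1 and 0.0553, 0.0892 and 0.0521 without BcorΔE9-10 replicate 1, 2 and 3.

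No partner of Pcgf5 was called. In the list of PRC1.3 and PRC1.5 partners, which holds the casein kinase 2 subunits and the Auts2 family, 0 of 5 tested genes were called by limma, edgeR or DESeq2, and 0 had an unadjusted p under 0.05. The smallest adjusted p was that of Csnk2a2, a catalytic kinase subunit, with a log2 fold change of -0.27 (adjusted p = 0.230). Auts2 itself stood at 0.445 to 0.935 CPM and was not tested. Of 10 PRC1.6 partners of Pcgf6, 0 were called by any of the 3 tools and 3 had an unadjusted p under 0.05. Tfdp2, a dimerisation partner of E2F factors, came nearest (log2 fold change 1.00, adjusted p = 0.0883), with 1.43 without BcorWT replicate 1 and 0.58 without BcorWT replicate 2. Of 5 genes of H2AK119ub removal 0 were called by any of the 3 tools and 0 had an unadjusted p under 0.05. Asxl1, a cofactor of the Bap1 deubiquitinase, had a log2 fold change of -0.31 (adjusted p = 0.198). Over these 6 lists together, 34 of 36 genes could be tested, 1 was higher and 1 lower, and the median log2 fold change was 0.19.

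Known PRC1 target genes were listed with the reports on this mutant in view and are not independent evidence of a direction. Hoxa9, Hoxa7 and Hoxa5 could be tested and were higher in BcorΔE9-10 cells, but Hoxa5, with 32, 24 and 69 counts against 2 and 9, passed the filter on low counts only through the group where it is high. Hoxa9, a homeobox gene of early progenitors, had a log2 fold change of 3.56 (adjusted p = 0.000192), Hoxa7 of 1.89 (adjusted p = 0.00658) and Hoxa5 of 2.87 (adjusted p = 0.0399). Without BcorWT replicate 1, Hoxa9 alone was called, Hoxa7 having an adjusted p of 0.0554 and Hoxa5 of 0.268. Hoxa5 was also not called without BcorΔE9-10 replicate 3 (adjusted p = 0.0793) or BcorWT replicate 2 (adjusted p = 0.137). The other 3 listed targets were too low to test. Cdkn2a, the cell cycle inhibitor gene named above, had 0, 0 and 2 counts in BcorΔE9-10 and 2 and 2 in BcorWT libraries, and Hoxa10 had 0 to 4 counts per library. Cdkn2b, a neighbouring inhibitor gene, had 0 counts in every library, which allows up to 0.351 to 0.490 CPM at these depths.

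The composition of the transcript ends moved with the fold changes of all genes. The log2 fold change and the GC content of the last 300 transcript bases had a Spearman correlation of -0.253 over 11759 genes, and genes within a library are no independent replicates. The end of the longest Pcgf5 transcript has a GC content of 28.7%, at percentile 4.0 of all genes. In the lowest of 20 GC bins, which holds 588 genes with Pcgf5 among them, the median log2 fold change was 0.36, its upper quartile 0.74, and 14.6% of genes were called higher against 0.85% lower. The log2 fold change of Pcgf5, 0.83, was above that quartile. With a GC trend removed from each library, Pcgf5 had a log2 fold change of 0.51 (SE 0.161, 95% interval 0.17 to 0.85, adjusted p = 0.0563) and 0 of the 8 subunit genes were called, where 8.92% of all 11766 genes were. Pcgf5 has 9 annotated ends, with GC contents of 28.7 to 50.3%, and which of them were read is not recorded in gene counts. With the mean of all annotated ends in place of the longest transcript, a choice made after seeing the data, the log2 fold change was 0.66 and the adjusted p 0.0166.

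The end of Cbx8 lies at the other side of this trend. Its GC content of 53.0% is at percentile 87.3, in a bin with a median log2 fold change of -0.13, and with the GC trend removed its log2 fold change was 0.76 (adjusted p = 0.0559). Bmi1 (34.7%) lay in a bin with a median of 0.15. The ends of the other 5 tested genes had GC contents of 41.7 to 51.0%.

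**Figure D4:**
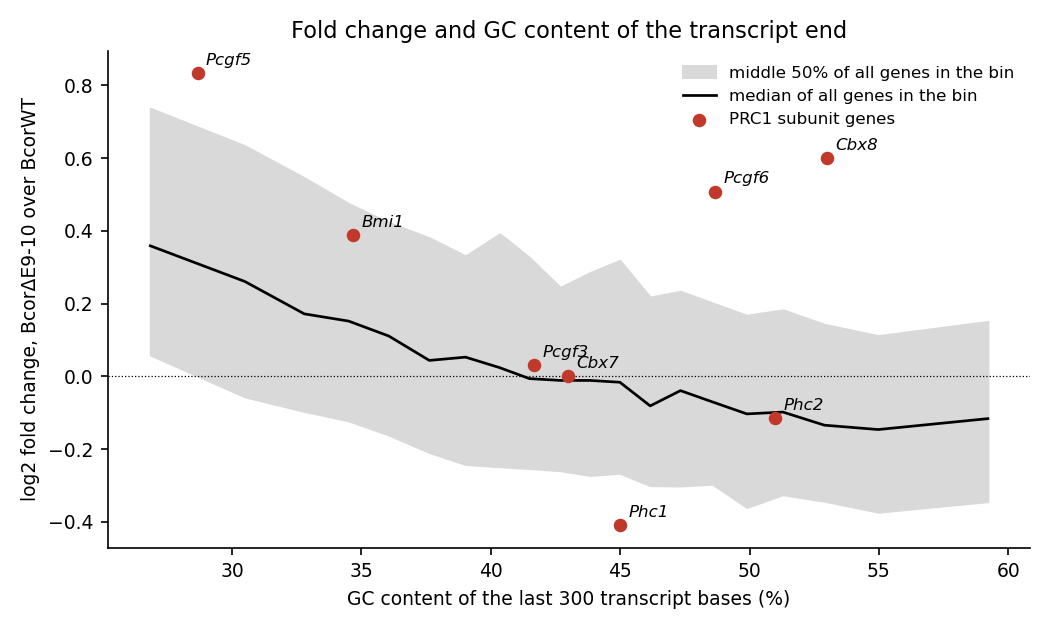
Log2 fold change of BcorΔE9-10 over BcorWT against the GC content (%) of the last 300 transcript bases, with the median (line) and middle 50% (grey) of all genes in 20 GC bins and the 8 tested subunit genes as red points. Pcgf5, at 28.7% GC, Cbx8, at 53.0% GC, and Pcgf6 lie above the grey band and Phc1 below it, while the band itself declines with GC content.

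Markers of other cells in the gate also moved with genotype. Of 11 genes of maturing neutrophils 7 were called lower in BcorΔE9-10 cells, and 481 of all 11766 genes tested were. The neutrophil list summed to 149900 to 173800 CPM against 216600 to 229200 CPM in BcorWT libraries. Of 8 tested genes of basophils, mast cells and eosinophils 6 were lower, with sums of 402 to 573 against 1021 to 1309 CPM. Erythroid genes summed to 67.1 to 267 CPM against 27.3 to 71.6 CPM, with overlap, and 1 of 9 tested genes was called by limma, 5 by edgeR and 2 by DESeq2, with 6 at an unadjusted p under 0.05. Without BcorΔE9-10 replicate 1, 6 of the 9 were called, and with a GC trend removed 0 were. Of 5 tested stem cell genes limma called 0, edgeR 1 and DESeq2 1, with 1 at an unadjusted p under 0.05. Of 7 tested lymphoid genes and of 5 tested megakaryocyte genes 0 were called by any of the 3 tools. Respectively 2 and 1 had an unadjusted p under 0.05. Pax5, Ebf1 and Igll1 passed the filter on low counts only through the group where they are high. Pax5, with 15, 11 and 15 counts in BcorΔE9-10 and 4 and 1 in BcorWT libraries, is 1 of the 2. All 6 monocyte genes had a negative log2 fold change, with sums of 1139 to 1271 CPM in BcorΔE9-10 against 1507 to 1510 CPM. Of these 6, 3 had an unadjusted p under 0.05 and 1, Ly6c2, was called lower. Ly6c2 was not called with a GC trend removed or without BcorΔE9-10 replicate 1 (adjusted p = 0.0902 and 0.0634). In bulk libraries of sorted cells, fewer cells of a type and less RNA per cell cannot be told apart. The part of these marker differences in the values of Pcgf5 and Cbx8 was not tested.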

How the data were processed

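KL cells were sorted from lineage-depleted bone marrow and their 3′ RNA was sequenced with the QuantSeq kit. Per the labels and the study's methods, the authors demultiplexed (bcl2fastq version 2.17.1.14), trimmed, aligned (HISAT2, mm10) and assigned the reads to genes with featureCounts (Subread version 1.5.0-p3). The deposited values are unnormalised gene counts. How strand and multiply aligned reads were treated is not given in the sources used here.

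From these counts, filterByExpr of edgeR (version 4.0.16) kept 11766 genes, at a minimum count of 10 and a minimum total of 15. After TMM scaling, limma (version 3.58.1, R version 4.3.3) tested genotype two-sided on voom values, and p-values were adjusted by Benjamini-Hochberg over the 11766 genes. Each adjusted p and each standard error or interval of a log2 fold change comes from this fit unless another tool is named. CPM values are counts over the TMM-scaled totals. Gene symbols matched 52403 of 52550 identifiers, and 94.97% of these had the same start and end in GENCODE M21 of the same build. Promoter windows came from RefSeq (GRCm38.p6) and were found for 8 of the 9 genes. Within a group the libraries were not duplicates (chi-square per gene 5.96 to 11.3, against 1 for sampling noise), and each was kept.

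The 9 genes and all lists were chosen with earlier results of these data known. Named were all 9 genes, Bcor, called genes of the other PRC1 lists and, where none was called, the gene with the smallest adjusted p. Rnf2, Yaf2, Auts2, Itgam, Cdkn2a, Cdkn2b, Hoxa10, Cbx6 and Pcgf2 are outside this rule and were chosen after their values were seen. The named genes of the marker lists, which are not all of the called ones, were also chosen after their values were seen. Apobec3 and F530104D19Rik are named because they overlap a subunit gene. Other paralogues are named with their shares, and 1 gene is not reported here and was left out of the lists and shares. The GC correction removed a lowess trend (span 0.3) on GC content over the final 300 bases of the longest transcript from each library without reference to group. Alternatives were edgeR's quasi-likelihood test, DESeq2 (version 1.42.0), other scaling, filters, weights and depth, leaving out each library and a replicate block. The procedure was tested on simulated data first.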

Additional observations from a re-analysis of the deposited data

How the results depend on the processing

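The count of genes called was 1970 at an unadjusted p with a fold threshold, against 1189, and 558 to 1200 when 1 library was left out (774 without BcorΔE9-10 replicate 2, 723 without BcorΔE9-10 replicate 3, 558 without BcorWT replicate 1). Of the 8 tested subunit genes 2 were called at an unadjusted p with a fold threshold, 0 with the GC correction, and 0 to 1 with 1 library left out, the 0 being without BcorWT replicate 1. The log2 fold change of Pcgf5 stayed positive under all 16 alternatives. It was 0.512 with the GC correction and ranged from 0.637 to 1.021 with 1 library left out. In 127 comparisons of a subunit gene with an alternative, 110 kept direction and call, 3 lost the call of Pcgf5 and 14 changed sign, and no gene that changed sign was called. Cbx7 was -0.032 in edgeR, -0.041 in DESeq2, -0.044 with quality weights and -0.595 to 0.613 with 1 library left out. Phc2 was 0.031 with library totals alone, 0.022 with the GC correction, 0.058 with the correction on the mean of all ends and -0.326 to 0.036 with 1 library left out. Pcgf3 was -0.0062 to 0.065 with 1 library left out and 0.3 with every library thinned to the depth of the smallest. Cbx8 had adjusted p-values of 0.0559 to 0.360 and Bmi1 of 0.126 to 0.612 over 16 alternatives. The cause of these changes was not tested.

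A fit with the replicate block called 1454 genes and shared 1087 calls with the fit without it. Libraries of the same number shared little beyond it (correlations of their deviations 0.070 and 0.076), and BcorΔE9-10 replicate 3, alone in its block, carries no weight in that fit. Pcgf5 was called with the replicate block (0.82, adjusted p = 0.000376). With the replicate block and the GC correction 0 subunit genes were called and Pcgf5 was 0.497 (adjusted p = 0.0666). Cbx7 was -0.134 with the replicate block and -0.1 with the GC correction added, and Phc2 was 0.09 with both.

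Depth limited Cbx2, Pcgf6 and Cbx7, which had 4 to 25 counts per library.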
